A study of Mus musculus with 4 samples.

Results

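The natriuretic peptide system was examined in the subcutaneous white fat of mice treated with BML-260 or with vehicle. Its 8 genes were taken by symbol from the 51912 genes of the table: the peptide genes Nppa, Nppb and Nppc, the receptor genes Npr1, Npr2 and Npr3, and the cyclic GMP-dependent kinase genes Prkg1 and Prkg2. Each symbol stood on 1 row. The BML-260 group had 2 libraries, A and B, from C57BL/6 mice labelled as 8-week and given BML-260, which is described as inhibiting the dual-specificity phosphatase DUSP22. The vehicle group had 2 libraries, A and B, from mice of the same strain and age given dimethyl sulfoxide (DMSO). The series speaks of 8 mice, 4 per treatment. The sources used here do not say which mice went into which library, and every p-value below therefore reflects the spread between these libraries alone, which may be partly technical. They also give no dose, route, duration or sex.

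Natriuretic peptides are hormones made mainly by the heart and, for CNP, by endothelium and other tissues. ANP and BNP bind NPR1 and CNP binds NPR2, and both receptors are guanylyl cyclases that make cyclic GMP inside the cell. NPR3 lacks the cyclase and removes all of these peptides from the circulation, so it is known as the clearance receptor. Cyclic GMP activates the kinases encoded by Prkg1 and Prkg2. In human adipocytes this route is known to promote lipolysis and, through p38 MAP kinase, genes of heat production. Whether it does so in this mouse fat was not tested.

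Libraries held 19999836 to 23726781 expected counts, and 15643 genes had enough counts to be tested with edgeR. Of these, 0.00639% (1 gene, Ucp1) passed an adjusted p of 0.05. Ucp1, the uncoupling protein of thermogenic adipocytes, lay at 251 and 263 CPM with BML-260, against 7.88 and 9.68 CPM with vehicle. CPM are reads scaled to a common library size and adjusted for library composition. Markers of mature adipocytes summed to 17100 and 23600 CPM in the BML-260 libraries and to 25000 and 24300 CPM in the vehicle libraries, and none of those 10 markers was at 0 in every library. Of the 10, 0 had a log2 fold change above zero, the median was -0.37 and 0 were called. Groups did not overlap in 6 of them, each lower with BML-260, beside 21.5% of all tested genes. Skeletal muscle markers summed to 26100 and 40300 CPM with BML-260 and to 319 and 9140 CPM with vehicle, and all 11 that could be tested lay higher with BML-260, with 0 called. B cell markers summed to 161 CPM in BML-260 A, against 1.80 to 2.73 CPM in the other libraries. In whole tissue, fewer cells of a type and less RNA per cell cannot be told apart.

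None of the 8 genes passed the test over all genes. The receptor genes were well expressed and differed between treatments by no more than the spread of the libraries, the peptide genes were almost without reads, and Prkg1 showed the widest difference, 2.21-fold higher with BML-260 on few reads. Of the 8 genes, 5 had enough counts to be tested: 0 passed an adjusted p of 0.05 by edgeR, by DESeq2 or by limma-voom, and 1, Prkg1, had an unadjusted edgeR p under 0.05. Among all tested genes the share with such a p was 11.1%. DESeq2 called 2.69% of the 15036 genes to which it gave an adjusted p, at a threshold of 0.05. The authors' deposited table also has 0 of the 8 genes at an adjusted p under 0.05, where 0.688% of its 51912 genes are. The median log2 fold change of the 5 was -0.04, beside 0.0172 over all tested genes.

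The sequences below are promoters of the genes described most fully. They are the 250 bases before RefSeq's annotated start on GRCm38.p6, 5′ to 3′ on the strand of the gene. Npr1 and Npr3, the signalling and the clearance receptor for the cardiac peptides, are shown because their log2 fold changes had opposite signs. Neither change passed the test, and a link of the motifs to the signs was not tested. Both Prkg1 starts are shown because the longest coding transcripts that begin at them differ in length. Whether the start has a part in the length values given later was not tested. Capitals mark 2 motifs, searched on both strands: TGACG, the core of the cyclic AMP response element bound by CREB, and GGGCGG, the GC box bound by Sp1-type factors. A GC box on the other strand reads CCGCCC here.
Npr1, chr3:90465867-90466116, minus strand: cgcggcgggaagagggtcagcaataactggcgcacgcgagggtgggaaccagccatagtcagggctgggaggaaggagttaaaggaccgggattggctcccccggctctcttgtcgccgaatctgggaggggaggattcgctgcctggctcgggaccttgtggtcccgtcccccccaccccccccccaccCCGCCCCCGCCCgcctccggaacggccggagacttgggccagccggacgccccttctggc
Npr3, chr15:11907372-11907621, minus strand: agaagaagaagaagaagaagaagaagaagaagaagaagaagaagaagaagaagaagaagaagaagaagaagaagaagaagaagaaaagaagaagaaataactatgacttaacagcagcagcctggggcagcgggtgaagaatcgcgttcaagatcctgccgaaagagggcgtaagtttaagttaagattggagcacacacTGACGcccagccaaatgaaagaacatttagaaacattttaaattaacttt
Prkg1, upstream start, chr19:31765034-31765283, minus strand: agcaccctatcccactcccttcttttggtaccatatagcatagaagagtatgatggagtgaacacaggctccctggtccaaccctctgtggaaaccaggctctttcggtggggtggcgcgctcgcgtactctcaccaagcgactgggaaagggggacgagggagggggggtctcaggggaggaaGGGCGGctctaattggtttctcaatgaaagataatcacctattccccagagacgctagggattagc
Prkg1, downstream start, chr19:31664371-31664620, minus strand: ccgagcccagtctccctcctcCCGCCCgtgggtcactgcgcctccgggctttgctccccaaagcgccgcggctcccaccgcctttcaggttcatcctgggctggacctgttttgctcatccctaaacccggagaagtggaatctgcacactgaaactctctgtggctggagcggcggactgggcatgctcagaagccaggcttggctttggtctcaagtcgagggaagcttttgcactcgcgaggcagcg

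The Npr1 window held 2 GC boxes side by side, 60 and 54 bases before the start, and no TGACG. The Npr3 window held 1 TGACG, 50 bases before the start, and no GC box, and its far end was a long run of the repeat gaa. That start is at 11907371. The longest coding transcript of Npr3, with 6892 bases, begins downstream of it at 11905639, and the bases before that position were not searched. Each Prkg1 window held 1 GC box, 66 bases before the upstream start and 229 bases before the downstream start. None of these windows held the full element TGACGTCA. Over the 32851 promoter windows of the same length in the RefSeq table, 17.8% held TGACG, 32.7% held GGGCGG and 1.55% held TGACGTCA. The motifs do not overlap one another in these windows, and a match describes letters only. RefSeq promoter entries were found for 7 of the 8 genes. Among the windows not printed, those of Npr2, Nppa and Nppb held neither motif, and that of Nppc held 1 GC box.

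The peptide genes had 3 reads among them in all 4 libraries. Nppa, which encodes ANP, had 0 and 0 reads with BML-260, against 0 and 1 read with vehicle. Nppb, which encodes BNP, had 1 and 0 reads with BML-260 and 0 and 0 with vehicle. Nppc, which encodes CNP, had the same counts, 1 and 0 with BML-260 and 0 and 0 with vehicle. Neither group had more than 1 read of any of them, and no fold change was formed from such counts. The exact 95% Poisson interval of a count of 0 reaches 3.69 reads, which is 0.159 to 0.178 CPM in these libraries. That of 1 read runs from 0.0253 to 5.57 reads, or up to 0.241 CPM for Nppa in vehicle B and 0.268 CPM for Nppb and Nppc in BML-260 A. These intervals cover counting error only. The genes lie on chromosome 4 at 148000722 to 148002079 (Nppa) and 147985788 to 147987205 (Nppb), both on the plus strand, and on chromosome 1 at 86666291 to 86670571 on the minus strand (Nppc), in GRCm38. Of 8 markers of heart muscle, where ANP and BNP are made, 3 had enough counts to be tested and 0 were called. The atrial light chain gene Myl7 and the cardiac factor gene Nkx2-5 had 0 reads in all 4 libraries, and Myh6 had 1 and 1 reads with BML-260 and 0 and 0 with vehicle. Actc1, an actin gene of heart that skeletal muscle also expresses, lay at 32.4 and 23.4 CPM with BML-260 and 0.665 and 3.72 CPM with vehicle. Myl4, another atrial light chain gene, had 56 and 57 reads with BML-260 and 91 and 58 reads with vehicle. The troponin gene Tnni3 had 13 and 13 reads with BML-260 and 18 and 19 reads with vehicle, and the troponin gene Tnnt2 had 14 and 7 reads with BML-260 and 3 and 2 reads with vehicle. Sln had 6 reads in BML-260 B and 0 in the other libraries. The heart markers thus lay on both sides of vehicle.

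Npr1, the guanylyl cyclase receptor for ANP and BNP, lay lower with BML-260 by less than the vehicle libraries differed from each other. It was counted 1428 and 1628 times in the BML-260 libraries and 1564 and 2086 times in the vehicle libraries. Scaled to library size, it stood at 68.8 and 74.2 CPM with BML-260 and at 74.2 and 90.2 CPM with vehicle. The groups did not overlap, but only barely, with BML-260 B at 74.16 CPM and vehicle A at 74.23 CPM, and 44.3% of all tested genes had groups that did not overlap. The log2 fold change was -0.20 (SE 0.14, 95% interval -0.56 to 0.15, edgeR adjusted p = 0.626), and the vehicle libraries alone differed 1.21-fold. Npr1 lies on chromosome 3 at 90450591 to 90465866, minus strand, and its coding transcript has 22 exons. An antisense gene, Gm16048, overlaps it with 14.0 to 27.0 reads per library, few beside those of Npr1.

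Npr2, the receptor for CNP, had groups that overlapped. It was at 53.1 and 75.8 CPM in the BML-260 libraries, against 65.2 and 74.9 CPM in the vehicle libraries. BML-260 A was the lowest library and BML-260 B the highest, so treatment did not order them. The log2 fold change was -0.12 (SE 0.20, 95% interval -0.63 to 0.38, edgeR adjusted p = 0.853), and without BML-260 A it was 0.10. Its span is 43631935 to 43651244 of chromosome 4, plus strand, with 4 coding transcripts of 526 to 3660 bases.

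Npr3, the clearance receptor, also overlapped between groups. It stood at 129 and 103 CPM with BML-260 and at 113 and 78.0 CPM with vehicle. BML-260 A was highest and vehicle B lowest, and vehicle A lay between the BML-260 libraries. The log2 fold change was 0.28 (SE 0.22, 95% interval -0.28 to 0.85, edgeR adjusted p = 0.671). Without vehicle B it was 0.04, and the vehicle libraries differed 1.45-fold from each other. Npr3 lies on chromosome 15 at 11839896 to 11907287, minus strand, with 3 coding transcripts of 1969 to 6892 bases. As folds over vehicle, the 95% intervals ran from 0.821 to 1.80 for Npr3 and from 0.680 to 1.11 for Npr1.

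Levels of different genes are compared per length, in FPKM as the authors deposited them. In FPKM, Npr2 averaged 24.7 ± 6.75 with BML-260 and 31.7 ± 4.03 with vehicle, and Npr1 averaged 20.2 ± 1.21 with BML-260 and 24.3 ± 2.78 with vehicle (SD, n = 2 each). Npr3 averaged 17.9 ± 3.31 FPKM with BML-260 and 14.9 ± 4.15 FPKM with vehicle. The order Npr2, Npr1, Npr3 held in BML-260 B and in both vehicle libraries. In BML-260 A the receptors were nearly level, at 19.9 FPKM for Npr2, 19.3 FPKM for Npr1 and 20.2 FPKM for Npr3. With BML-260 the library values of the receptors overlapped. With vehicle they did not, since the lowest Npr2 library was at 28.8 FPKM, Npr1 lay at 22.4 and 26.3 FPKM, and the highest Npr3 library was at 17.9 FPKM.

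**Figure D1:**
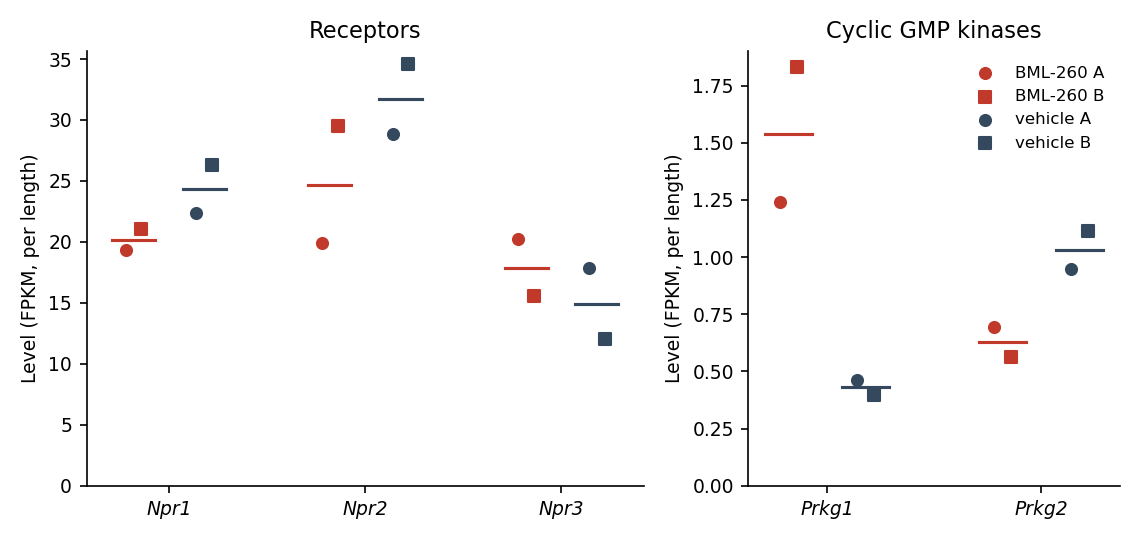
Level of each receptor and kinase gene in FPKM (reads scaled for transcript length and library size), with 1 point per library, BML-260 left of vehicle and a line at the group mean. The receptors lie between 12.0 and 34.6 FPKM and the kinases between 0.398 and 1.83 FPKM, and Prkg1 is the gene whose groups differ most as a fold.

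The ratio of Npr1 to Npr3, which sets the signalling receptor against the clearance receptor, was lower on average with BML-260 and overlapped between groups. In FPKM the ratio was 0.956 and 1.35 in the BML-260 libraries A and B, against 1.25 in vehicle A and 2.19 in vehicle B. Vehicle A lay between the BML-260 libraries, and vehicle B was the one library that stood apart. The mean log2 ratio was 0.186 with BML-260 and 0.728 with vehicle, a difference of -0.541 that became -0.138 without vehicle B and -0.945 without vehicle A. Npr3 made up 34.0% and 23.5% of the receptor FPKM with BML-260, against 25.9% and 16.5% with vehicle. The ratio is given as a description and was not tested. An exact permutation test of 2 libraries against 2 gives no p below 0.333.

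**Figure D2:**
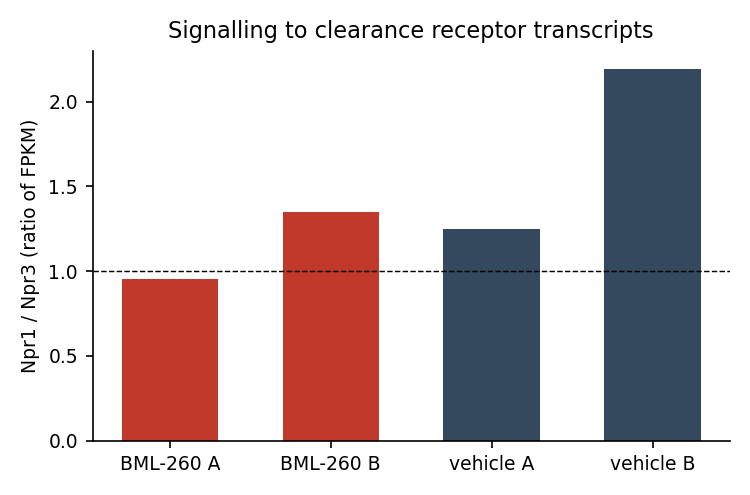
Ratio of Npr1 to Npr3 FPKM in each library, BML-260 in red and vehicle in blue, with a dashed line at 1. BML-260 A is the only library below 1, at 0.956, and vehicle A at 1.25 lies below BML-260 B at 1.35.

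Prkg1 encodes cyclic GMP-dependent kinase I, the kinase through which cyclic GMP relaxes smooth muscle and acts in adipocytes. It had 46 and 90 reads in the BML-260 libraries, against 32 and 31 reads in the vehicle libraries. Scaled to library size, it lay at 2.22 and 4.10 CPM with BML-260 and at 1.52 and 1.34 CPM with vehicle. The groups did not overlap, and 22.9% of all tested genes likewise lay higher with BML-260 without overlap. BML-260 B was 1.85-fold above BML-260 A, while the vehicle libraries differed 1.13-fold. The log2 fold change was 1.14 (SE 0.41, 95% interval 0.09 to 2.19, edgeR unadjusted p = 0.0380), and the adjusted p was 0.430. In size this exceeded 92.9% of the tested genes, though genes with few reads vary most. Without BML-260 B the log2 fold change was 0.63, and without BML-260 A it was 1.504. The authors' deposited table gives Prkg1 a log2 fold change of 0.62 with a p of 0.0582 and an adjusted p of 0.537. DESeq2 as run here gave 1.14 with an unadjusted DESeq2 p of 0.057. How the authors' fold change was computed is not given, so its size may not be comparable with these.

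**Figure D3:**
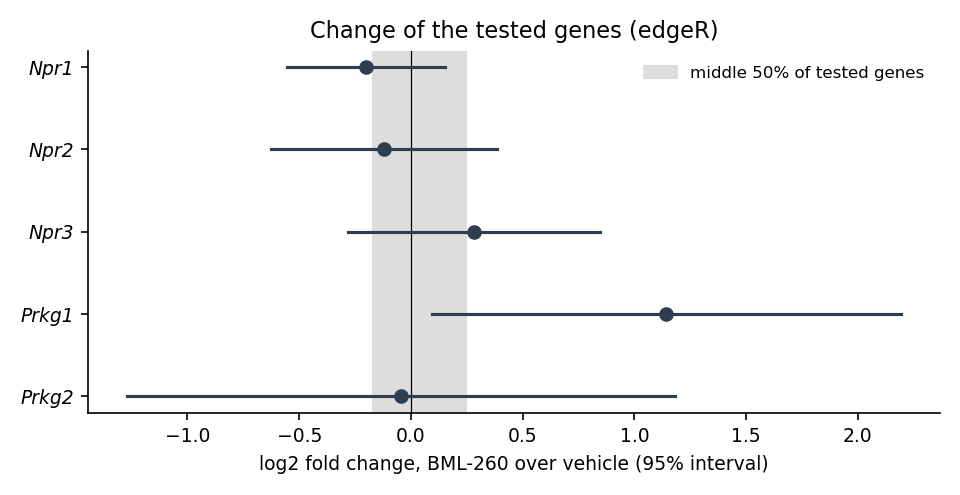
Log2 fold change of BML-260 over vehicle for the 5 tested genes, with 95% intervals from edgeR, over a grey band that holds the middle part of all tested genes (-0.170 to 0.247). The interval of Prkg1, 0.09 to 2.19, is the only one that leaves out 0, and the p adjusted over all genes is 0.430.

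Skeletal muscle markers were higher with BML-260 as Prkg1 was, with sums of 26100 and 40300 CPM with BML-260 and 319 and 9140 CPM with vehicle. In the same libraries Prkg1 stood at 2.22 and 4.10 CPM with BML-260, and at 1.52 CPM in vehicle A and 1.34 CPM in vehicle B. Markers of smooth muscle, a tissue known for this kinase, lay lower with BML-260 without overlap in 5 of 10 genes and higher in 1, beside 21.5% and 22.9% of all tested genes. Of the 10, 5 had a log2 fold change above zero, and the median was -0.15. Myh11, the smooth muscle myosin gene, lay at 37.0 and 81.9 CPM with BML-260 and 90.2 and 107 CPM with vehicle, and Tagln lay at 30.7 and 52.3 CPM with BML-260 and 83.5 and 82.2 CPM with vehicle. Rgs5, a pericyte gene, lay at 158 and 174 CPM with BML-260 and 194 and 132 CPM with vehicle. The smooth muscle and pericyte list summed to 621 and 864 CPM with BML-260 and 814 and 840 CPM with vehicle, with 0 called, and no marker was at 0 in every library. The part of cell content in the Prkg1 values was not tested.

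Per length, the difference in Prkg1 was wider than in reads. It was listed at 1.24 and 1.83 FPKM with BML-260, against 0.463 and 0.398 FPKM with vehicle, which is 3.57-fold between the means where the scaled reads gave 2.21-fold. Reads and FPKM together imply an effective transcript length, which can fall short of the annotated length. For Npr1, whose 1 coding transcript has 4066 bases, it lay between 3262 and 3696 bases. For Prkg1 that length was 1850 and 2072 bases with BML-260 and 3387 and 3382 bases with vehicle. The vehicle libraries were almost equal and both BML-260 libraries were shorter. Of the 5684 tested genes with a mean of under 200 reads, 97.8% had a smaller change in implied length. For Prkg2, also with few reads, that share was 96.1%. Its change ran the other way, with a mean of 3766 bases with BML-260 and 2426 bases with vehicle. Npr2 also had lengths without overlap, at 2767 and 2379 bases with BML-260 and 2332 and 2179 bases with vehicle. Prkg1 spans chromosome 19 from 30564489 to 31765033 on the minus strand. Its longest coding transcripts have 6976 bases from the upstream start and 2841 bases from the downstream start printed above. The implied lengths with BML-260 lay below both of these, though an implied length and an annotated length are not the same measure. The other annotated transcripts of Prkg1, coding and noncoding, have 479 to 1628 bases. The implied length is an average over transcripts weighted by their estimated abundance, from 31 to 90 reads a library, and which transcripts were present was not measured. Cstf2t, a coding gene on the opposite strand inside Prkg1, had 677 and 721 reads with BML-260 and 772 and 723 with vehicle, and without a stated strand setting reads in shared sequence could not be assigned with certainty.

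**Figure D4:**
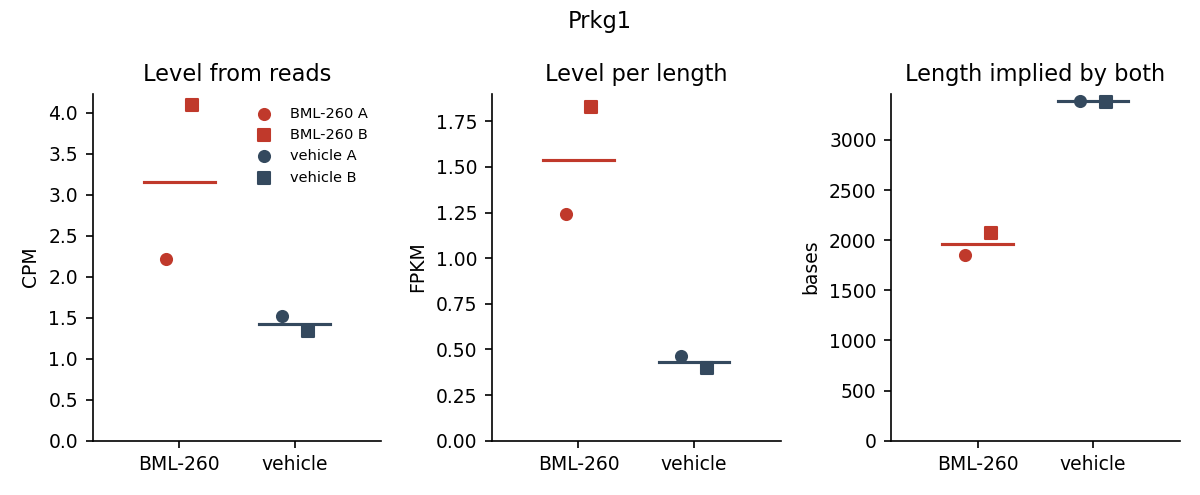
Prkg1 in each library as scaled reads (CPM), as FPKM, and as the effective transcript length in bases that both imply. BML-260 stands left of vehicle, with lines at group means. Both BML-260 libraries are higher in CPM and FPKM, and the implied length is 1850 and 2072 bases with BML-260 against 3387 and 3382 bases with vehicle.

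Prkg2, which encodes the membrane-bound kinase II, known best from intestine, kidney and cartilage, also had few reads. It had 67 and 36 reads with BML-260 and 38 and 74 reads with vehicle, or 3.23 and 1.64 CPM with BML-260 and 1.804 and 3.198 CPM with vehicle. Each group held 1 high and 1 low library. The log2 fold change was -0.04 (SE 0.48, 95% interval -1.27 to 1.18, edgeR adjusted p = 0.982), with an interval of 0.415 to 2.27 as fold over vehicle. In FPKM the groups did not overlap, at 0.694 and 0.561 with BML-260 and 0.946 and 1.11 with vehicle, while its implied lengths were 4827 and 2705 bases with BML-260 and 1968 and 2884 bases with vehicle. How many of all tested genes had no overlap in FPKM was not counted. In scaled reads the Prkg2 groups overlapped, and 44.3% of all tested genes had groups that did not. Prkg1 was above Prkg2 in FPKM in both BML-260 libraries and below it in both vehicle libraries. In scaled reads, which take no account of length, Prkg1 was below Prkg2 in BML-260 A as well, at 2.22 against 3.23 CPM. The gene lies on chromosome 5 at 98929773 to 99037351, minus strand, with 4 coding transcripts of 1308 to 4968 bases.

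The other genes of the pathway were described from 7 lists with 66 genes, of which 49 had enough counts. By edgeR 0 of them passed an adjusted p of 0.05, while 8 higher and 1 lower had an unadjusted p under 0.05. DESeq2 called 4, each of them higher, and gave no adjusted p for Gucy1a2, Cngb1 and Cngb3. Over all tested genes, 7.45% lay higher and 3.61% lay lower with an unadjusted p of that size. Of the 15036 genes to which DESeq2 gave an adjusted p, it called 2.17% higher and 0.519% lower. The median log2 fold change of the 49 was -0.004, close to the 0.0172 of all tested genes.

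No gene that matures or degrades the peptides passed the test: of 7 listed, 4 were tested and the median log2 fold change was -0.15, or -0.096 without BML-260 A. Ide, a protease that degrades ANP, was at 68.8 and 82.6 CPM with BML-260 and 55.3 and 59.3 CPM with vehicle (log2 fold change 0.40, SE 0.14, edgeR adjusted p = 0.419). Furin, a convertase of propeptides, was at 90.3 and 83.0 CPM with BML-260 and 102 and 112 CPM with vehicle, and the related convertase gene Pcsk6 was at 93.8 and 93.4 CPM with BML-260 and 103 and 132 CPM with vehicle. Mme, which encodes neprilysin, the main peptidase of natriuretic peptides, had a log2 fold change of 0.01. Corin, which encodes the activator of proANP in the heart, and Ostn, which encodes an NPR3 ligand from muscle and bone, had too few counts for a test. Ostn had 0.289 and 0.273 CPM with BML-260 and 0.0475 and 0.0864 CPM with vehicle.

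Other sources of cyclic GMP include the soluble guanylyl cyclases, which nitric oxide activates. Of 11 listed cyclase and guanylin genes 3 were tested and 0 passed, with a median of -0.07. Leaving out BML-260 A moved it to -0.148, BML-260 B to -0.022, vehicle A to -0.031 and vehicle B to -0.126. Gucy1a1 was at 10.6 and 16.5 CPM with BML-260 and 19.1 and 17.1 CPM with vehicle, and its partner subunit gene Gucy1b1 was at 9.53 and 8.93 CPM with BML-260 and 10.1 and 9.25 CPM with vehicle. Gucy1a2 stayed under 1 CPM in every library. Nos1, the neuronal type nitric oxide synthase gene, which skeletal muscle also expresses, lay at 10.3 and 12.9 CPM with BML-260 and 1.28 and 0.821 CPM with vehicle. Its log2 fold change of 3.46 (SE 0.33) had an edgeR adjusted p of 0.216 and a DESeq2 adjusted p of 6.5e-13. Nos3, the endothelial synthase gene, was at 84.0 and 125 CPM with BML-260 and 129 and 146 CPM with vehicle, and Nos2 was at 6.60 and 12.4 CPM with BML-260 and 10.9 and 10.4 CPM with vehicle. Skeletal muscle markers summed to 26100 and 40300 CPM with BML-260 and 319 and 9140 CPM with vehicle, and their part in the Nos1 values was not tested. Endothelial markers summed to 578 and 765 CPM with BML-260 and 954 and 827 CPM with vehicle, with 0 of 9 called and 6 of 9 lower with no overlap, where 21.5% of all tested genes were.

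Phosphodiesterases end the cyclic GMP signal. Of 11 listed genes 10 were tested and 0 passed, 2 lay above zero, and the median was -0.13, or -0.239 without vehicle B. Pde9a, which is specific for cyclic GMP, was at 1.49 and 2.37 CPM with BML-260 and 4.08 and 3.198 CPM with vehicle (log2 fold change -0.91, SE 0.36, edgeR adjusted p = 0.455). Pde2a, which cyclic GMP itself activates, was at 38.2 and 85.0 CPM with BML-260 and 106 and 91.0 CPM with vehicle, with BML-260 A alone far from the others. Pde5a, the target of sildenafil, had a log2 fold change of -0.03 (SE 0.23). Pde6d, a prenyl-binding subunit gene, had 0.35 (SE 0.15). Pde6d is among the 2 above zero and in the median, though its product does not itself break down cyclic GMP. Pde3b, the cyclic GMP-inhibited enzyme through which insulin restrains lipolysis, was at 241 and 339 CPM with BML-260 and 400 and 336 CPM with vehicle. Of 7 genes of export and of cyclic nucleotide channels, 4 were tested and 0 passed. Their median was -0.03, and it was -0.044 without BML-260 A, -0.012 without vehicle A and -0.117 without vehicle B. Cngb3, a channel subunit gene, stayed under 1 CPM in each library, the exporter gene Abcc5 was at 86.4 and 94.3 CPM with BML-260 and 108 and 105 CPM with vehicle, and Abcc4, another exporter gene, had a log2 fold change of 0.19.

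Known substrates and partners of the kinases lay on both sides of zero, with 9 of 18 tested above it, 0 called by edgeR and a median of 0.01. The sign of that median depended on the libraries: it became -0.040 when BML-260 A was left out, 0.1 for BML-260 B, -0.023 for vehicle A and 0.059 for vehicle B. DESeq2 called 2 higher, Kcnma1 and Hspb6. Kcnma1, the pore of the BK potassium channel that the kinase opens in smooth muscle, was at 3.76 and 2.78 CPM with BML-260 and 0.759 and 0.951 CPM with vehicle (log2 fold change 1.92, SE 0.36, edgeR adjusted p = 0.285, DESeq2 adjusted p = 0.0419). Hspb6, a small heat shock protein gene abundant in muscle, was at 77.4 and 93.0 CPM with BML-260 and 12.4 and 30.1 CPM with vehicle (log2 fold change 2.001, SE 0.42, edgeR adjusted p = 0.304, DESeq2 adjusted p = 1.25e-04). Beside these values stand the skeletal muscle marker sums of 26100 and 40300 CPM with BML-260 and 319 and 9140 CPM with vehicle, whose part in the Hspb6 values was not tested. Ppp1cb, a phosphatase subunit gene, was at 162 and 166 CPM with BML-260 and 132 and 127 CPM with vehicle. Cnn1, the smooth muscle calponin gene and the 1 lower gene with an unadjusted p under 0.05, was at 2.55 and 5.56 CPM with BML-260 and 7.21 and 11.4 CPM with vehicle (log2 fold change -1.20, SE 0.45). Lipe encodes hormone-sensitive lipase, which is part of the lipolysis route known in human adipocytes. It was at 1541 and 2217 CPM with BML-260 and 2223 and 2272 CPM with vehicle (log2 fold change -0.26, SE 0.27). Lipe is also one of the mature adipocyte markers summed above, and the part of adipocyte content in its values was not tested.

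The p38 branch was the list with the highest median among those 7, at 0.47 over 7 tested genes, with 7 of them above zero, where 52.5% of all tested genes were. No gene of it passed in edgeR, 3 of them lay higher with an unadjusted p below 0.05, and 1 was called by DESeq2. Groups did not overlap in 5 of the 7, each higher with BML-260, beside 22.9% of all tested genes. Map2k6, which encodes the p38 activator MKK6, was at 23.98 and 20.9 CPM with BML-260 and 7.26 and 9.64 CPM with vehicle (log2 fold change 1.41, SE 0.20, edgeR adjusted p = 0.249, DESeq2 adjusted p = 9.92e-05). Mapk12, which encodes p38 gamma, abundant in skeletal muscle, was at 28.5 and 38.2 CPM with BML-260 and 16.1 and 22.4 CPM with vehicle (log2 fold change 0.79, SE 0.23). Map2k3, another p38 activator gene, was at 69.2 and 88.8 CPM with BML-260 and 53.5 and 60.4 CPM with vehicle. Mapk14, which encodes p38 alpha, and Atf2, a factor downstream of it, both lay at 0.05 on the log2 fold change scale. The median of the list was 0.283 when BML-260 B was left out. Skeletal muscle markers were higher in both BML-260 libraries, and their part in this list was not tested.

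**Figure D5:**
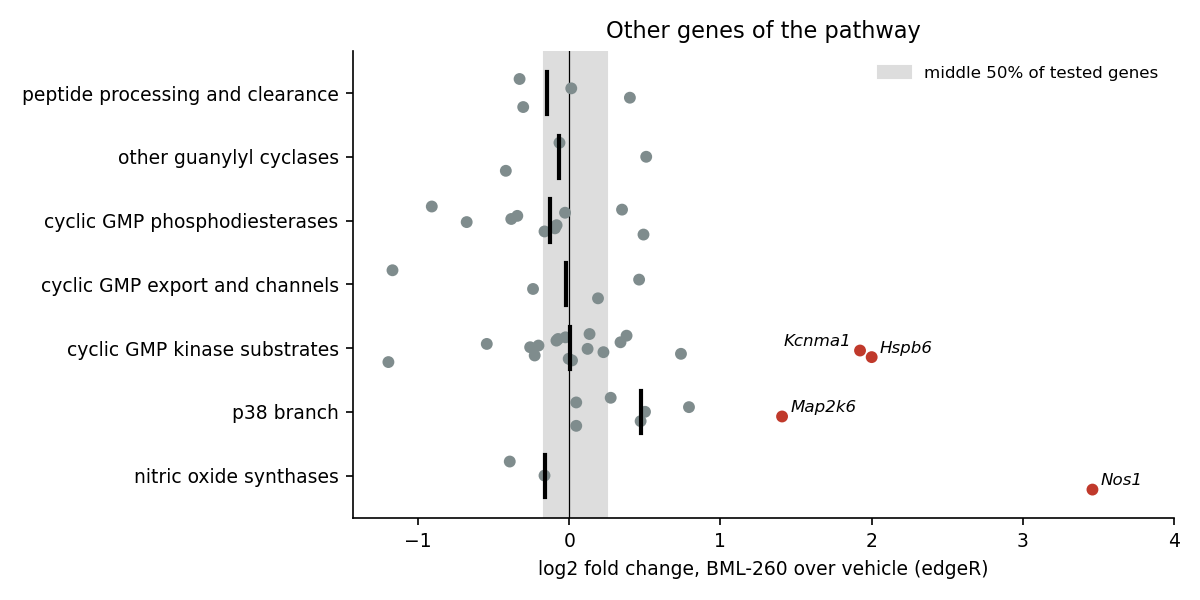
Log2 fold change of BML-260 over vehicle for the 49 tested pathway genes by list, with a black line at the list's median, red for genes called by DESeq2 and a grey band for the middle part of all tested genes. Most points lie near the band, and Nos1 at 3.46, Hspb6 at 2.001, Kcnma1 at 1.92 and Map2k6 at 1.41 are the red ones.

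Genes with the most similar profile over the 4 libraries were found by the distance between centred log2 levels, among 13132 genes with an average log2 CPM of at least 1. For Prkg1 they were Casz1, the clock output factor gene Dbp and Gm21967, at distances of 0.116, 0.135 and 0.195, and only 3 genes lay within 0.2. Dbp was at 125 and 218 CPM with BML-260 and 91.4 and 94.1 CPM with vehicle, so it shared the high value in BML-260 B. For Npr1 the nearest were Hps6, Tmem200b and Gm26617, among 846 genes within 0.2. For Npr2 they were Slc25a22, Mrps18a and Gm43413, among 484. For Npr3 they were Kmt2c, Rbm3 and Txnip, among 104, and Txnip was at 935 and 789 CPM with BML-260 and 806 and 575 CPM with vehicle. For Prkg2 they were Dnaaf3, Ddx11 and Slamf8, among 10. A profile here has only 4 values, and these names are a description.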

How the data were processed

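RNA was extracted from the fat with TRIzol and libraries followed Illumina protocols, per the labels. The expected counts, estimated per gene and not normalized, stand in 1 table as the authors deposited it. The same table holds FPKM, which the authors scaled for length and library size per the file headers. It also holds the authors' group means, those means on a log2 scale, and the authors' log2 fold change with its p-value and adjusted p-value, all as deposited. Build GRCm38.p5 and the tools RSEM 1.2.31, HISAT2 2.1.0 and DESeq2 1.10.1 are listed in the submitters' processing notes, with no role given. Annotation, strand setting and filters on reads are not given in the sources used here. The authors' group means were not used.

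Expected counts were rounded, and filterByExpr kept 15643 genes. The test was the quasi-likelihood test of edgeR 4.0.16 in R 4.3.3, two-sided, on TMM-scaled counts with treatment as the sole covariate. P-values were adjusted over all tested genes by Benjamini-Hochberg, with a threshold of 0.05. A standard error is the fold change on the log2 scale over the root of the F statistic, with 2 residual and 3.28 prior degrees of freedom. The procedure was also run on simulated data with planted changes, and the share of them it recovered is not given here. Alternatives were DESeq2 1.42.0, limma-voom (limma 3.58.1), other scaling and filters, the library letter as a block, and leaving out each library. Implied length is reads divided by FPKM and by the library's total. Profile distances used log2 CPM with 0.5 added. Coordinates come from GENCODE on GRCm38, and promoters from RefSeq on GRCm38.p6. Libraries of a group differed beyond sampling noise of their counts. Intervals of single counts are exact Poisson at 95%.

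The genes and lists were chosen with earlier results of these data known. Named were all 8 genes, the 3 nearest genes of each tested one, and the 3 genes with the smallest p in each pathway list. Mme, Pde5a, Pde3b, Lipe, Mapk14, Atf2, Corin, Ostn, Cnn1 and the single markers were named in addition, after their values were seen.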

Additional observations from a re-analysis of the deposited data

How the results depend on the processing

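No alternative called any of the 8 genes. The number of genes called over all genes was 1, and it was 405 with DESeq2, 651 with no filter, 0 with the library letter as a replicate block, and between 0 (without vehicle A) and 309 (without vehicle B) when a library was left out. Of the pathway genes 0 were called, against 4 with DESeq2, 5 with no filter, and 0 to 3 with a library left out. Leaving out a library turned the direction of 2 genes: the log2 fold change of Npr2 ran from -0.405 to 0.099, above zero without BML-260 A, and that of Prkg2 from -0.625 to 0.427, above zero at 0.359 without BML-260 B and at 0.427 without vehicle B. Npr1 ran from -0.362 to -0.057, Npr3 from 0.036 to 0.547 and Prkg1 from 0.627 to 1.504, with Prkg1's adjusted p between 0.243 and 0.985 over all alternatives. With the replicate block Prkg1 stood at 1.084 (edgeR adjusted p = 0.586). Deviations of BML-260 and vehicle libraries with the same letter correlated at -0.0211 over 13132 genes. With so few libraries this is a single value, and it cannot show whether the letters pair the libraries. Prkg1 did not pass the filter of 50 reads in 2 libraries. Of 77 values of list medians under alternatives 69 kept their sign, and the 8 others were for kinase substrates (7) and nitric oxide synthases (1), whose median ran from -0.694 without BML-260 B to 0.205 without BML-260 A. Of the 77, 13 moved by more than the replicate spread. Over all alternatives the medians ran from -0.239 to -0.106 for phosphodiesterases, -0.117 to -0.012 for export and channels, -0.238 to -0.022 for other cyclases, -0.207 to -0.096 for peptide processing, -0.045 to 0.1 for kinase substrates and 0.283 to 0.522 for the p38 branch. The causes were not tested. Prkg1 and Prkg2 had 31 to 90 reads a library, and their libraries within a group differed by up to 1.97-fold.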
